A study of Homo sapiens with 4 samples.

Results

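The 10 genes described here encode amino acid transporters of the plasma membrane: SLC7A1, SLC7A5, SLC7A6, SLC7A11, SLC3A2, SLC1A4, SLC1A5, SLC38A1, SLC38A2 and SLC6A9. All probe sets to which the array's annotation gives exactly 1 symbol from these names were taken, which gave 27 of the 54675 probe sets on the array and 10 of 19775 genes. SLC7A5, SLC3A2, SLC1A5 and SLC6A9 had 1 probe set each, and the others had 3 to 5. HEK293 cells, a human embryonic kidney line grown as an adherent layer, were profiled on 4 Affymetrix arrays. In the LPA group (2 arrays) cells kept overnight without serum received 1 µM lysophosphatidic acid, a lipid growth signal of serum with its own G protein-coupled receptors, for 2 h. The untreated group (2 arrays) has treatment "none" in the labels and the letters Vc in its titles, which the labels do not explain. Each group has a replicate number 1 and a number 2, and the labels do not say what the number marks or that the replicates were separate cultures, so p-values reflect how far these arrays vary, and that variation may be technical.

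Mammalian cells take up amino acids through a small number of cooperating carriers. SLC3A2 (CD98 heavy chain, also 4F2hc) is a single-pass glycoprotein that brings the light chains SLC7A5, SLC7A6 and SLC7A11 to the cell surface. SLC7A11 (xCT) exchanges extracellular cystine for intracellular glutamate and feeds the synthesis of glutathione, SLC7A5 (LAT1) exchanges large neutral amino acids such as leucine for glutamine, and SLC7A6 (y+LAT2) exchanges arginine and other cationic amino acids for neutral ones. SLC7A1 (CAT-1) carries arginine and lysine without a heavy chain. SLC1A5 (ASCT2) and SLC1A4 (ASCT1) are sodium-dependent exchangers of small neutral amino acids, SLC38A1 (SNAT1) and SLC38A2 (SNAT2) load the cell with glutamine and alanine together with sodium, and SLC6A9 (GlyT1) imports glycine. When amino acids run short the kinase GCN2 (EIF2AK4) phosphorylates the initiation factor eIF2, the transcription factor ATF4 accumulates, and many of these transporter genes are among its known targets.

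ATF4, paired with a C/EBP factor, binds a short element whose core is TGATGNAA, so this core was looked for on both strands in RefSeq promoter windows (GRCh38.p14, from 250 bases before an annotated start to 50 bases after it). The 15 windows of 9 members were searched. No window was available for SLC7A11, so it was not searched. The core was found in 5 windows of 5 members, against 1270 of 35116 windows of all genes (3.62%). The windows of SLC7A5, SLC7A6, SLC38A2 and SLC6A9 did not hold these letters. For SLC1A4, SLC1A5, SLC38A1 and SLC3A2 another annotated start of the gene had a window without them. Each match is printed within 30 bases on the gene's strand, 5′ to 3′, with the 8 bases of the core in capitals (its reverse complement in SLC1A4 and SLC3A2). They are shown because the ATF4 arm is set beside the transporters in the results. The matches lie at chr13:29595663-29595692 (minus strand, 8 bases into the transcript) for SLC7A1, at chr12:46266502-46266531 (minus strand, across the start) for SLC38A1, at chr2:64989381-64989410 (plus strand, across the start) for SLC1A4, at chr11:62881719-62881748 (plus strand, 38 bases into the transcript) for SLC3A2, and at chr19:46784893-46784922 (minus strand, 97 bases before the start) for SLC1A5.
SLC7A1: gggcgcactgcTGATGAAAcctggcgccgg
SLC38A1: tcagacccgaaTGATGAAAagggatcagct
SLC1A4: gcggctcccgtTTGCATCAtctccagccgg
SLC3A2: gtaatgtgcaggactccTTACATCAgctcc
SLC1A5: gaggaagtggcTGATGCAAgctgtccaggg
A match is a description of the letters and not of binding.

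The deposited values are linear intensities, scaled to the same trimmed mean on all arrays (500.1). LPA replicate 2 stood apart from the other 3 arrays in its maximum, at 62508 against 93776 to 104012. Its ACTB 3′-to-5′ ratio was 18.8, against 12.6 to 13.6 on the others. This ratio depends on RNA integrity and labelling, and on every array it was far above that of GAPDH (1.22 to 1.38). The median intensity of LPA replicate 2 (72.3) lay within the range of the other arrays (70.3 to 76.1). Of the HEK293 background genes all 8 with a probe set, among them NEFM, NEFL, VIM, KRT8, KRT18 and PAX2, lay above the filter described next. Of 10 markers of other cell types 3 did: COL1A1, HBB and the endothelial marker PECAM1. Those of leukocytes (PTPRC, CD3E), liver (ALB), muscle (MYOD1), glia (GFAP) and islets (INS) lay below it, as did CDH5, another endothelial marker. The brightest probe sets of HBB (57.9 to 175) and PECAM1 (48.3 to 130) had arrays on both sides of the filter's level. The other probe sets of HBB and PECAM1 lay below it by their means. Each gene was tested at its brightest probe set on log2(intensity + 1), on which folds of dim genes are understated, if its mean reached the 40th percentile of all genes (an intensity of 70.5), which 11865 genes did. In bulk RNA less transcript per cell and fewer expressing cells cannot be told apart. Of the 10 transporters 9 were tested, and SLC6A9 was not. Of their 27 probe sets 22 lay above the same level.

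Of the 10 transporters 1 passed a test in this series, SLC7A11, and it did so between the replicate numbers and not between LPA and untreated cells. In the comparison of LPA with no treatment, which asks which transcripts differ 2 h after LPA in serum-starved cells, 0 of 9 tested members passed an adjusted p of 0.05 in limma, against 0.0% of all tested genes (0 of 11865, with 207 genes, 1.74%, at an unadjusted p under 0.05). Adjusted p was 0.9999 for each of the 9. Their log2 differences, LPA minus untreated, ran from -0.30 (SLC7A1) to 0.22 (SLC38A1), 5 of them above and 4 below 0, with a median of 0.040 against 0.0092 for all tested genes. Both LPA values lay below both untreated values for 1 tested member, SLC38A2, where 12.5% of all tested genes did so, and above them for 0, where 14.4% did so. The 3′-to-5′ ratio of GAPDH was 1.35 and 1.38 on the LPA arrays (numbers 1 and 2), against 1.25 and 1.22 on the untreated arrays. That of ACTB was 13.6 and 18.8 on the LPA arrays, against 13.4 and 12.6 on the untreated arrays, and so nearly equal within number 1. Both were higher on both LPA arrays, and their part in the differences between treatments, that of SLC38A2 included, was not tested.

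Between replicate number 2 and number 1, over both treatments, 1 of the 9 passed, against 3.75% of all tested genes (445, of which 197 were higher and 248 lower with number 2, or 81 higher and 283 lower with each array centred on its median). Differences, number 2 minus number 1, ran from -0.31 (SLC7A1) to 0.87 (SLC7A11), with a median of 0.10 against 0.0135 for all tested genes. Both number 2 values lay above both number 1 values for 3 members (SLC7A11, SLC3A2 and SLC38A1), where 26.5% of all tested genes did so, and below them for 2 (SLC7A1 and SLC7A6), where 24.1% did so. These shares of the members are close to those of all genes. The ACTB and GAPDH ratios overlapped between the numbers. The 10 markers of other cell types summed to 1473 and 1633 with number 2 (LPA and untreated), against 1189 and 1348 with number 1. Most of each sum was COL1A1, at 1069 and 1103 with number 2, against 847 and 991 with number 1. The median marker overlapped between the numbers, at 25.6 and 42.5 with number 2, against 20.6 and 40.8 with number 1. The part of these markers in the differences between the numbers was not tested.

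**Figure D1:**
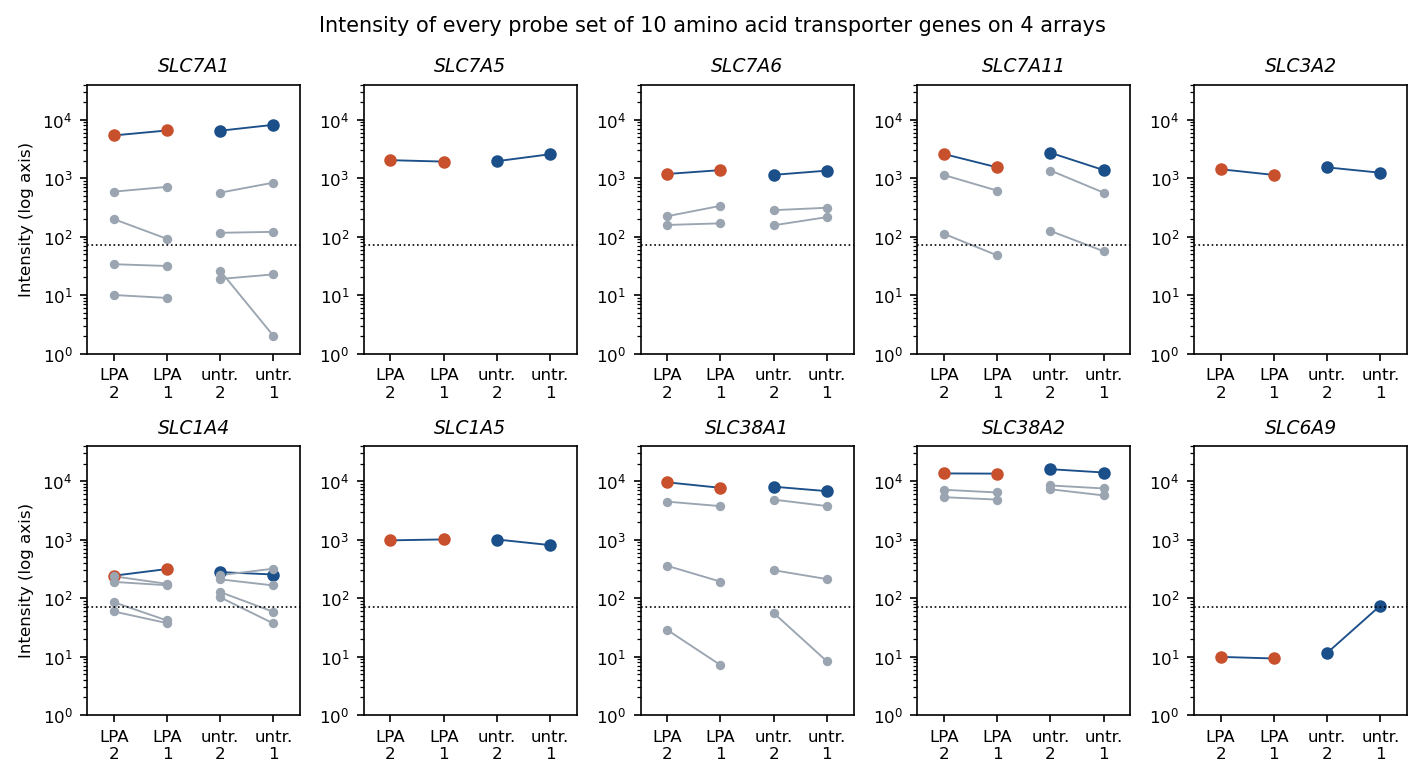
Intensity (log axis) of every probe set of the 10 genes on each array, with number 2 left of number 1 within LPA and within untreated (untr.) cells. Large coloured points are the gene's brightest probe set (orange LPA, blue untreated), grey points its other probe sets, lines join the numbers within a treatment, and the dotted line is the filter at 70.5. All 3 SLC7A11 lines step down from number 2 to number 1 in both treatments, and SLC6A9 lies below the filter on 3 of 4 arrays.

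The cystine carrier SLC7A11 (chr4:138164097-138242349) was higher on both number 2 arrays than on both number 1 arrays at each of its 3 probe sets, as were 24.3% of all probe sets above the filter. The brightest, 209921_at, read 2587 and 2717 with number 2 (LPA and untreated), against 1531 and 1374 with number 1. This is a log2 difference of 0.87 ± 0.12 (SE, 2 arrays per number), or 1.83-fold, with limma adjusted p = 0.00798. The groups did not overlap, and the step was 0.76 within LPA cells and 0.98 within untreated cells. A difference at least as far from 0 was found for 417 of 11865 genes (3.51%), so SLC7A11 lay in the tail of the distribution but was not alone there. The second probe set, 217678_at, read 1132 and 1352 against 612 and 565, a difference of 1.07 ± 0.16 and an adjusted p of 0.011 when limma was run on all 21817 probe sets above the filter, of which 2.01% passed. The third, 207528_s_at, read 112 and 125 against 47.8 and 56.2, a difference of 1.17 ± 0.46 that did not pass (limma adjusted p = 0.21), and its number 1 values lie below the filter's level. Between treatments all 3 overlapped. At the brightest the LPA arrays read 1531 and 2587 and the untreated arrays 1374 and 2717, a difference of 0.043 ± 0.34, with 0.16 in number 1 and -0.071 in number 2. Without LPA replicate 2, the array that stood apart, the difference between the numbers was 0.91 and still passed (limma adjusted p = 0.0208). The call was lost without untreated replicate 1 (0.79, limma adjusted p = 0.0542), with probe sets averaged (1.04, 0.0641) and when eBayes used no trend (0.239), in a range of 8.38e-06 to 0.239 over 16 alternatives.

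SLC3A2 (chr11:62856109-62888860), the heavy chain of SLC7A11, was also higher with number 2 but did not pass. Its 1 probe set read 1421 and 1530 with number 2 (LPA and untreated), against 1135 and 1237 with number 1. The difference was 0.32 ± 0.13 (SE; limma adjusted p = 0.21), nearly equal within LPA cells (0.32) and untreated cells (0.31), and the groups did not overlap. Between treatments, the LPA arrays read 1135 and 1421 and the untreated arrays 1237 and 1530, a difference of -0.12 ± 0.20, with -0.12 in number 1 and -0.11 in number 2. Each LPA array was thus slightly below the untreated array of its number, by less than the numbers differed.

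The leucine exchanger SLC7A5 (chr16:87830023-87869507), another partner of SLC3A2, had overlapping values in both comparisons. It read 2030 and 1951 with number 2 (LPA and untreated), against 1920 and 2568 with number 1, a difference of -0.16 ± 0.15 (SE; limma adjusted p = 0.596). Untreated replicate 1 was the high array, and the other 3 lay within 1920 to 2030. LPA minus untreated was -0.18 ± 0.19 (SE), made up of -0.42 in number 1 and 0.057 in number 2. The partner for cationic amino acids, SLC7A6 (chr16:68264526-68301819), was lower with number 2 at all 3 of its probe sets. The brightest read 1179 and 1139 with number 2 (LPA and untreated), against 1372 and 1344 with number 1, a difference of -0.23 ± 0.13 (SE; limma adjusted p = 0.369). The other probe sets differed by -0.36 and -0.28, and at none of the 3 did the numbers overlap. Among all probe sets above the filter 23.5% lay lower with number 2 in this way. LPA minus untreated was 0.040 ± 0.19 at the brightest and -0.12 and -0.17 at the others, so the probe sets gave no common direction. Of the 3 light chains of SLC3A2 among the members, SLC7A11 thus rose with number 2, while SLC7A6 and SLC7A5 had negative differences that did not pass.

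SLC7A1 (chr13:29509414-29595688), the arginine and lysine carrier that works without SLC3A2, had the lowest difference of the 9 in both comparisons. Its brightest probe set, 212295_s_at, read 6543 and 5376 in LPA cells (numbers 1 and 2), against 8175 and 6481 in untreated cells. LPA minus untreated was -0.30 ± 0.18 (SE; limma unadjusted p = 0.131, adjusted p = 0.9999), close to equal within number 1 (-0.32) and number 2 (-0.27). The treatments still overlapped, since LPA replicate 1 read above untreated replicate 2. Between the numbers, number 2 read 5376 and 6481 (LPA and untreated), against 6543 and 8175 with number 1, a difference of -0.31 ± 0.14 without overlap (limma adjusted p = 0.25). The next probe set, 212290_at, read 588 and 565 with number 2, against 709 and 838 with number 1 (-0.42 ± 0.18, limma adjusted p = 0.242 over all probe sets), while its LPA minus untreated difference was -0.093 ± 0.26. Without LPA replicate 2 the brightest probe set gave -0.15 between treatments and -0.17 between the numbers. The third above the filter, 212292_at, went the other way on 1 array: LPA replicate 2 read 199, against 91.6 on LPA replicate 1 and 121 and 116 on the untreated arrays. The remaining 2 SLC7A1 probe sets lay below the filter, with at most 33.7 on any array.

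**Figure D2:**
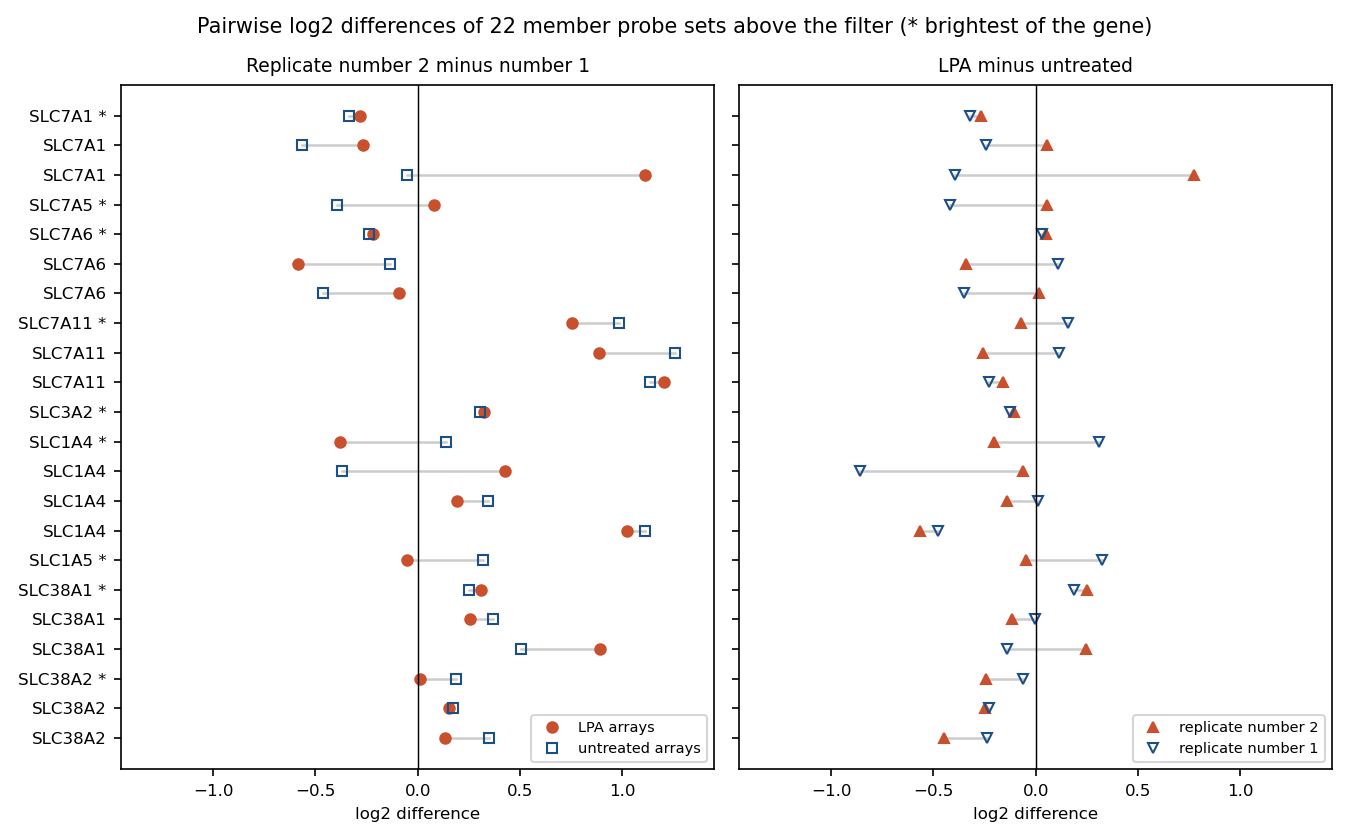
Log2 differences of the 22 member probe sets above the filter, 1 line per probe set, with an asterisk at the brightest of each gene. The left panel gives number 2 minus number 1 within LPA arrays and within untreated arrays, and the right panel gives LPA minus untreated within each number. SLC7A11 has both points at 0.76 or above at all 3 probe sets on the left, and the 3 SLC38A2 probe sets have both points below 0 on the right.

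SLC38A2 (chr12:46358188-46372773), the sodium-coupled carrier that cells raise when amino acids run short, was the 1 tested member whose LPA values all lay below its untreated values, and this held at each of its 3 probe sets. The brightest, 222982_x_at, read 13475 and 13583 in LPA cells (numbers 1 and 2), against 14078 and 16048 in untreated cells, a difference of -0.15 ± 0.15 (SE; limma adjusted p = 0.9999). The second, 218041_x_at, read 6414 and 7131 in LPA cells, against 7511 and 8461 in untreated cells (-0.24 ± 0.16). The third, 220924_s_at, read 4845 and 5324 in LPA cells, against 5708 and 7275 in untreated cells (-0.34 ± 0.17, limma unadjusted p = 0.0788). None passed. The 3 probe sets measure the same transcript on the same arrays and are not independent, and the suffix x marks probe sets whose probes can also match other transcripts. Among all probe sets above the filter, 12.8% had both LPA values below both untreated values. Within the numbers the brightest gave -0.063 (number 1) and -0.24 (number 2), the second -0.23 and -0.25, and the third -0.24 and -0.45. Between the numbers SLC38A2 differed by 0.10 ± 0.14 (SE; limma adjusted p = 0.738), and its other probe sets by 0.16 and 0.24, all with overlap. Without LPA replicate 2 its LPA minus untreated difference was -0.16.

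SLC38A1 (chr12:46183063-46269043), a relative of SLC38A2 on the same chromosome, was higher with number 2 at all 3 of its probe sets above the filter. The brightest, 224579_at, read 9565 and 8048 with number 2 (LPA and untreated), against 7704 and 6757 with number 1, a difference of 0.28 ± 0.13 (SE; limma adjusted p = 0.258). The next, 218237_s_at, read 4470 and 4841 against 3745 and 3751 (0.31 ± 0.12), and 224580_at read 357 and 300 against 192 and 211 (0.70 ± 0.27). None overlapped and none passed. The fourth lay below the filter. Among all probe sets above the filter 24.3% lay higher with number 2 without overlap. Between treatments the brightest read 7704 and 9565 in LPA cells (numbers 1 and 2), against 6757 and 8048 in untreated cells, the highest LPA difference of the 9 at 0.22 ± 0.17 (SE; limma adjusted p = 0.9999). The others gave -0.059 and 0.053, so this difference rests on 1 probe set, and without LPA replicate 2 it was 0.063.

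SLC1A5 (chr19:46774883-46788594), the glutamine exchanger, had small differences in both comparisons. It read 1009 and 972 in LPA cells (numbers 1 and 2), against 807 and 1006 in untreated cells, a difference of 0.14 ± 0.20 (SE), with 0.32 in number 1 and -0.049 in number 2. Untreated replicate 1 was the low array, and the numbers differed by 0.13 ± 0.16 with overlap. SLC1A4 (chr2:64988479-65023865), the serine and alanine exchanger, gave no common reading. Its brightest probe set read 314 and 242 in LPA cells, against 253 and 279 in untreated cells (0.053 ± 0.30). The next read 175 and 236 in LPA cells, against 319 and 247 in untreated cells (-0.46 ± 0.32, without overlap), the third differed by -0.065 and the fourth by -0.52. Between the numbers these 4 differed by -0.12, 0.029, 0.27 and 1.07. The last, 209611_s_at, is the dimmest of these 4, at 85.2 and 127 with number 2 (LPA and untreated), against 41.4 and 58.2 with number 1. It did not pass (limma adjusted p = 0.297 over all probe sets), and its number 1 values lie below the filter's level. The remaining probe set, 244377_at, lay below the filter by its mean, at 59.1 and 103 with number 2, against 37.4 and 36.8 with number 1. SLC6A9 (chr1:43996483-44031462), the glycine carrier, read 9.27 and 9.87 in LPA cells, against 74.6 and 11.5 in untreated cells. It exceeded the filter's level on untreated replicate 1 alone and was not tested.

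**Figure D3:**
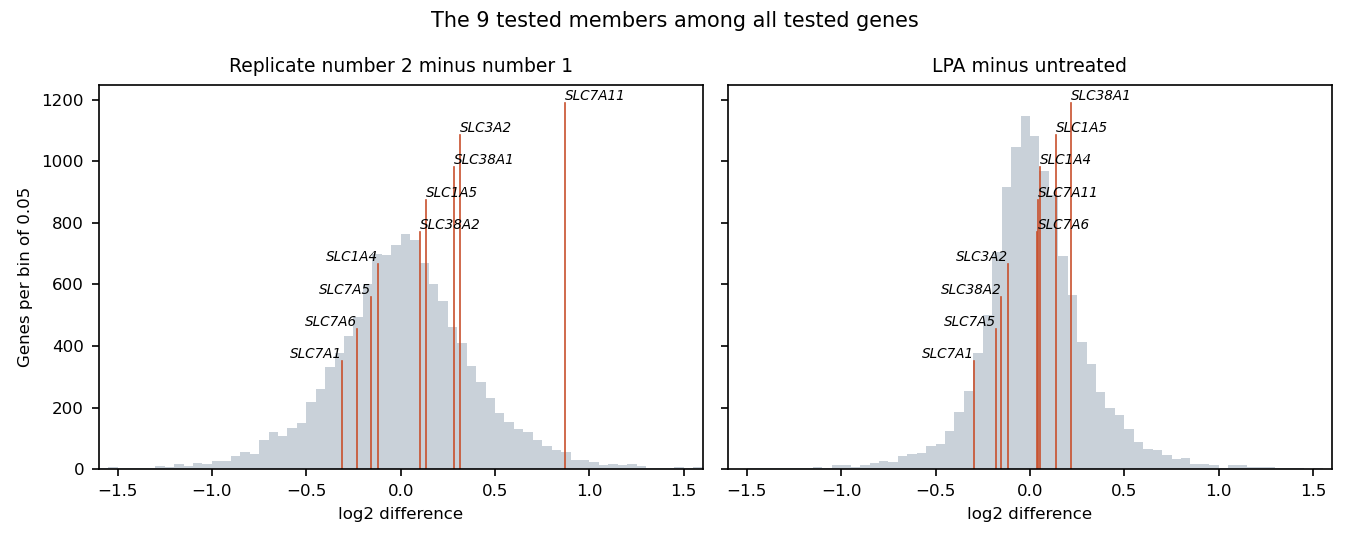
Distribution of the log2 differences of all 11865 tested genes in bins of 0.05, with a line at each of the 9 tested members (line heights only separate the names). Left, number 2 minus number 1, where SLC7A11 lies at 0.87 and the other 8 within -0.31 to 0.32; right, LPA minus untreated, where all 9 lie within -0.30 to 0.22.

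The ATF4 arm of the response to amino acid shortage held further genes that rose with number 2. Of 20 tested genes on this list 5 passed, all higher with number 2, where 1.66% of all tested genes passed in that direction, and 0 passed lower, where 2.09% did. The median difference was 0.353, against 0.0135 for all tested genes, and 14 of 20 had both number 2 values above both number 1 values, where 26.5% of all tested genes did so. The list was chosen with earlier results of these data known, so these shares are no independent support. DDIT4, an inhibitor of mTORC1, read 5427 and 4610 with number 2 (LPA and untreated), against 1565 and 1767 with number 1 (1.59 ± 0.13, limma adjusted p = 0.000312). ASNS, which makes asparagine, read 12225 and 13962 against 7565 and 7254 (0.82 ± 0.12, limma adjusted p = 0.011). CHAC1, which degrades glutathione, read 402 and 393 against 78.0 and 122 (2.01 ± 0.33, 0.0121). TRIB3, a pseudokinase that restrains this response, differed by 0.94 ± 0.15 (limma adjusted p = 0.0121), though its dimmer probe set differed by -0.016. CEBPB, a C/EBP factor named after its values were seen, was the remaining gene that passed (0.68 ± 0.11).

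The ATF4 transcript itself was not among them. It read 31265 and 49421 with number 2 (LPA and untreated), against 41079 and 44119 with number 1, a difference of -0.12 ± 0.22 (SE; limma adjusted p = 0.823). LPA replicate 2 was its lowest array. DDIT3 (CHOP), a factor that ATF4 induces, differed by 0.51 ± 0.13 without overlap (adjusted p = 0.0612). Between LPA and untreated cells 0 of the 20 passed. ATF4 read 41079 and 31265 in LPA cells (numbers 1 and 2), against 44119 and 49421 in untreated cells (-0.38 ± 0.19), and ASNS differed by -0.065 ± 0.32. Between the numbers the count of 5 became 2 without untreated replicate 1 (CHAC1 and DDIT4), 1 with the mean of all probe sets (DDIT4), 0 without the intensity trend, 8 with treatment as a term and 9 with treatment and quantile normalization, all of them higher. It was also 5 without LPA replicate 2. Over all 11865 tested genes the count was 445 as reported, 9 with the mean of all probe sets and 0 without the intensity trend. It was 1382 with treatment as a term and 1184 with treatment and quantile normalization. The list's 8 and 9 stood beside these larger counts. Without untreated replicate 2, number 2 was LPA replicate 2 alone, the array that stood apart. ATF4 was then lower with number 2, and this rests on that array.

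SLC7A11 is also a known target of NRF2 (NFE2L2), the factor that answers oxidative stress. Of 12 tested genes of the NRF2 arm and glutathione synthesis, a list that includes SLC7A11, SLC7A11 was the 1 that passed between the numbers, where 3.75% of all tested genes passed. The other 11 ran from -0.35 ± 0.15 for KEAP1, the inhibitor of NRF2 (limma adjusted p = 0.208), to 0.20 ± 0.15 for GCLM, a subunit of the enzyme that begins glutathione synthesis. At GCLM's other probe sets above the filter the differences were -0.44 and -0.34, so its probe sets gave no common direction. NFE2L2 read 2373 and 2130 with number 2 (LPA and untreated), against 2164 and 2369 with number 1 (-0.010 ± 0.12). Between LPA and untreated cells 0 of the 12 passed, and HMOX1, which degrades haem, had the largest difference at 0.41 ± 0.32.

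**Figure D4:**
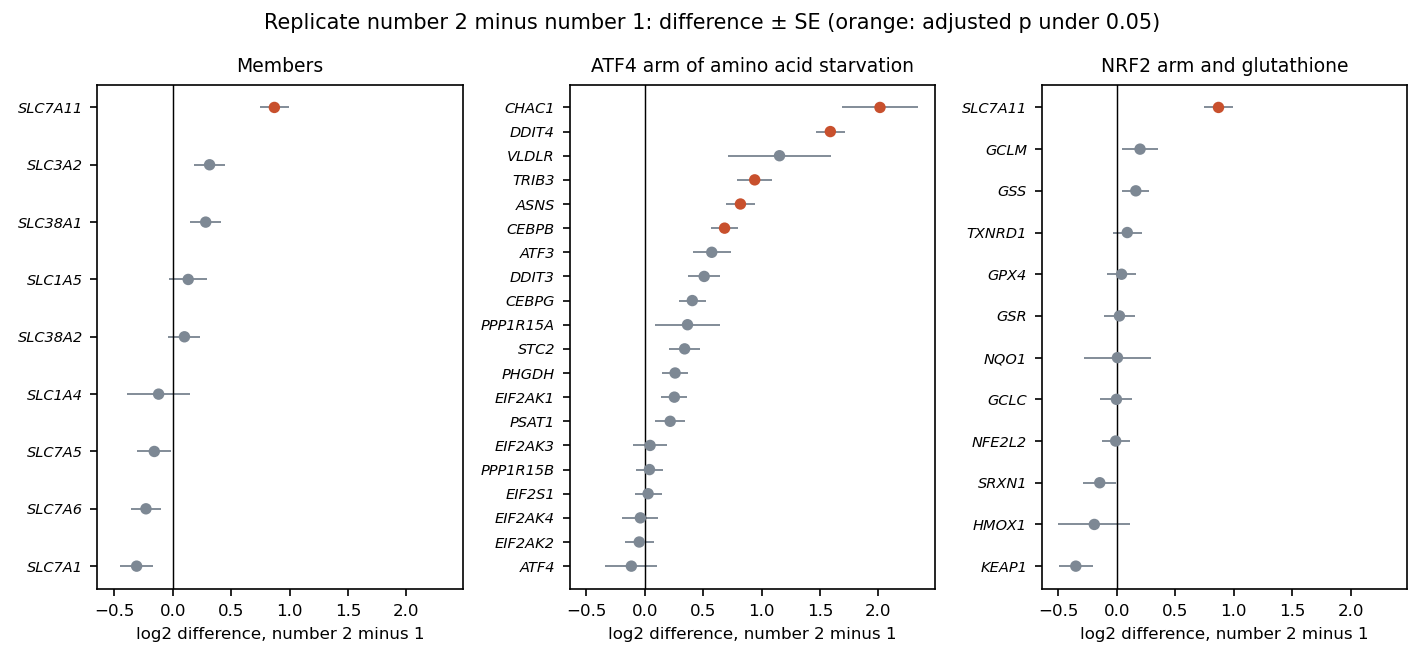
Log2 difference, number 2 minus number 1, with its SE for the tested genes of 3 lists (2 arrays per number). Orange points passed an adjusted p of 0.05: SLC7A11 among the transporters, CHAC1, DDIT4, TRIB3, ASNS and CEBPB in the ATF4 arm, and SLC7A11 again in the NRF2 arm.

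Genes that sense amino acids upstream of the growth kinase mTORC1 gave 1 call among 20 tested between the numbers, close to the 3.75% of all tested genes. SESN1, a sestrin that restrains mTORC1, read 1772 and 1600 with number 2 (LPA and untreated), against 1123 and 907 with number 1 (0.74 ± 0.15, limma adjusted p = 0.0241). It no longer passed without LPA replicate 2, without untreated replicate 1, with each array centred on its median, with the mean of all probe sets or without the intensity trend. SESN2, its relative and a leucine sensor, differed by 0.49 ± 0.22 between the numbers (adjusted p = 0.248) and by 0.44 ± 0.28 between LPA and untreated cells. The list's median between the numbers was 0.0825. Between LPA and untreated cells 0 of the 20 passed.

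Of 27 other plasma membrane amino acid transporters 26 had a probe set and 11 were tested, and 0 passed in either comparison, against 3.75% of all tested genes between the numbers and 0.0% between treatments. Between the numbers the smallest p-values were those of SLC43A2, a carrier of large neutral amino acids (-1.83 ± 0.68, adjusted p = 0.159), SLC7A3, the cationic carrier related to SLC7A1 (0.54 ± 0.22, 0.184), and SLC43A1 (0.53 ± 0.21, 0.19). SLC43A2 was dim, at 86.9 and 15.9 with number 2 (LPA and untreated), against 133 and 138 with number 1. Between LPA and untreated cells they were those of SLC7A2, another cationic carrier (0.39 ± 0.22), SLC6A6, the taurine carrier (0.32 ± 0.20), and SLC43A1 (0.39 ± 0.29). SLC7A2 read 1101 and 1073 in LPA cells (numbers 1 and 2), against 960 and 718 in untreated cells. The list's median was 0.101 between treatments and 0.0422 between the numbers.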

How the data were processed

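RNA of 4 HEK293 samples was hybridised to Affymetrix arrays. The authors deposited linear intensity values for each probe set on each array; the submitters' processing notes name MAS5, without a version or settings. The trimmed mean (2% at each end) was 500.1 on all arrays, and no normalization was added. Of 54675 probe sets 41097 had 1 symbol. Groups and numbers came from the titles. Each of 19775 genes was taken at its brightest probe set, and 11865 at or above the 40th percentile of mean log2 intensity were compared with limma 3.58.1 (R 4.3.3; lmFit, eBayes with an intensity trend) on log2(intensity + 1), as a two-sided test with Benjamini-Hochberg adjusted p over the tested genes. LPA was set against untreated, and number 2 against number 1, each without the other as a term. The fit was tested on simulated data. SE is limma's moderated value, with a median of 0.244 between treatments and 0.184 between numbers, and the number of arrays limits the precision. A gene was named as a member or by smallest p within its list, up to 4 that passed or 3 otherwise; ATF4, ASNS, DDIT3, NFE2L2 and SESN2 were named in any case. The members and lists were chosen with earlier results of these data known, so they are no independent support. The alternatives changed the normalization, pseudocount, filter, probe set rule, variance model, model terms and arrays. Figures were drawn with matplotlib 3.10.9.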

Additional observations from a re-analysis of the deposited data

How the results depend on the processing

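With 2 arrays per group, the number of arrays limits every comparison, and probe sets near the filter's level of 70.5 are not shown to be above background. Between LPA and untreated cells the count of genes past the threshold was 0 as reported, 32 with the replicate block, 4 with the replicate block and quantile normalization, and 0 to 3 when 1 array was left out; no member passed under any alternative. Same-numbered arrays deviated together (r = 0.33 across 11865 genes), but with 2 pairs the numbers are not shown to pair the samples. Between the numbers the count of 445 became 219 with no filter, 9 with the mean of all probe sets, 0 without the intensity trend, 1382 with treatment as a term, 1184 with treatment and quantile normalization, and 39 to 631 when 1 array was left out, the lowest without untreated replicate 1. With treatment and quantile normalization SLC38A1 (0.31, adjusted p = 0.0366) and SLC7A1 (-0.31, 0.0431) passed as well. The causes were not tested.

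Some members' directions turned, those of SLC7A1 and SLC38A1 among them. With the mean of all probe sets LPA minus untreated became -0.28 for SLC1A4, -0.087 for SLC38A1, 0.13 for SLC7A1, -0.074 for SLC7A11 and -0.081 for SLC7A6, and number 2 minus number 1 became 0.46 for SLC1A4 and 0.28 for SLC7A1; dim probe sets then weigh as much as bright ones. For SLC1A4, LPA minus untreated became -0.018 with quantile normalization, alone or with the replicate block, and -0.0066 with cyclic loess. When 1 array was left out, LPA minus untreated ran from -0.14 to 0.24 for SLC1A4, -0.022 to 0.30 for SLC1A5, -0.28 to 0.046 for SLC3A2, -0.45 to 0.53 for SLC7A11, -0.38 to 0.017 for SLC7A5 and -0.080 to 0.16 for SLC7A6. Number 2 minus number 1 ran from -0.28 to 0.035 for SLC1A4, -0.029 to 0.29 for SLC1A5, -0.020 to 0.22 for SLC38A2 and -0.37 to 0.052 for SLC7A5. SLC38A2 between treatments, and SLC7A11, SLC3A2, SLC38A1 and SLC7A6 between the numbers, kept their direction under all 16 alternatives.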

Other observations

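Of 12 carriers in lysosomes and other endomembranes, not all of them for amino acids, 11 were tested. In either comparison 0 passed, against 3.75% of all tested genes between the numbers and 0.0% between treatments. Between the numbers the smallest p-values were those of SLC17A5, the lysosomal sialic acid carrier (0.33 ± 0.13, limma adjusted p = 0.193), SLC38A9, the lysosomal arginine sensor (0.20 ± 0.14), and SLC66A1, which exports cationic amino acids from lysosomes (0.33 ± 0.26). Between LPA and untreated cells they were those of SLC29A3 (-0.39 ± 0.32), SLC36A4 (-0.19 ± 0.18) and SLC36A1 (0.28 ± 0.30), the last a proton-coupled carrier of small amino acids.

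The profiles of the 9 tested transporters over the 4 arrays, each centred on its own log2 mean, were averaged, and the tested genes nearest to that mean by Euclidean distance were TBCB (0.0137), MED8 (0.0159), HSPH1 (0.0231), ASB6 (0.0249) and SLC25A14 (0.0258). That mean was nearly flat, at -0.0446 and 0.0165 in LPA cells (numbers 1 and 2) and -0.0535 and 0.0816 in untreated cells. Genes that vary little over the arrays therefore lie near it. The transporters themselves lay farther from their own mean profile, from 0.134 for SLC38A2 to 0.779 for SLC7A11.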
